A study of Mus musculus with 6 samples.

Results

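The genes described here are Lin28a, Lin28b, Trim71, Hmga1, Hmga2, Igf2bp1, Igf2bp2 and Igf2bp3, a set built around the RNA-binding protein LIN28, the let-7 microRNAs and transcripts that let-7 represses. A probe set, a group of short probes for one transcript, was taken as a member where the array annotation gave it 1 gene symbol and that symbol was 1 of these 8. This found 19 probe sets for 6 of the 8 genes, out of 45037 probe sets tested that cover 18193 genes. Hmga1 and Igf2bp2 had no probe set with their symbol alone and were not analysed here. The members were Lin28a with 2 probe sets (chr4:134003330-134019196), Lin28b with 1 (chr10:45376617-45486314), Trim71 with 2 (chr9:114511268-114564369), Hmga2 with 4 (chr10:120361268-120476469), Igf2bp1 with 4 (chr11:95957163-96005944) and Igf2bp3 with 6 (chr6:49085218-49215469), with gene positions from RefSeq on GRCm38.p6.

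RNA was measured on 6 Affymetrix mouse arrays. Differentiating cells (3 arrays, D1 to D3) were E14TG2a mouse embryonic stem (ES) cells kept for 3 days without leukaemia inhibitory factor (LIF) and sorted as positive for 5T4, a surface glycoprotein that appears as ES cells leave the pluripotent state. Undifferentiated cells (3 arrays, U1 to U3) were the same line grown with LIF at 1000 units/ml and sorted as negative for 5T4. All cells grew on gelatin, in medium with fetal calf serum by the study's methods, while the sample labels give serum or serum replacement. The effect of LIF removal and the effect of the sort cannot be told apart, because every differentiating array had both. Nothing says that the replicates came from separate cultures, so p-values measure the spread between these arrays only, which may be technical.

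In ES cells LIN28A and LIN28B bind the precursors of let-7 and prevent their processing, in part by recruiting the enzymes TUT4 and TUT7, which add uridines to the precursor. Mature let-7 in turn represses Lin28a, Lin28b, Trim71, Hmga2 and the Igf2bp genes, which places LIN28 and let-7 in a loop of mutual repression. TRIM71 is a ubiquitin ligase and RNA-binding protein of early embryos, HMGA1 and HMGA2 are chromatin proteins that bind AT-rich DNA, and the IGF2BP proteins bind messenger RNAs and affect their stability and translation. LIN28A is an established marker of ES cells, whereas HMGA2 is known to be induced as ES cells leave the naive state for the primed, epiblast-like state.

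The let-7 molecules themselves were not measured on these arrays. Their sequences are shown for the seed that the family shares, bases 2 to 8 counted from the 5′ end. Sites for let-7 in the member transcripts were not examined. RefSeq (GRCm38.p6) held 9 distinct mature 5p sequences of the family, and all 9 had the seed GAGGUAG, printed in capitals in these 4.
let-7a-5p: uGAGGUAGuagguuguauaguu
let-7b-5p: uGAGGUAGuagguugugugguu
let-7g-5p: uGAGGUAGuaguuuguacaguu
miR-98-5p: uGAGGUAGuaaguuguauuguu

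The precursors are shown for the part that LIN28 is known to contact, the GGAG motif between the arms of the hairpin. It was searched as the letters GGAG on the transcript strand, between the annotated 5p and 3p arms. Of 12 let-7 family hairpins, 9 held it and 3 did not (let-7b, let-7c-2 and miR-98), whereas 44 of 632 other mouse hairpins with both arms annotated (6.96%) held it. The let-7 stretches searched were 23 to 36 bases long. Lengths in the other hairpins were not matched to these, and the 12 let-7 hairpins resemble each other, so the shares are not like for like. A match describes the letters and is not a measured binding site. In these hairpins GGAG is printed in capitals, for let-7g (chr9:106178840-106178927, plus strand), let-7a-1 (chr13:48538179-48538272, minus strand) and, without the motif, let-7b (chr15:85707319-85707403, plus strand).
let-7g: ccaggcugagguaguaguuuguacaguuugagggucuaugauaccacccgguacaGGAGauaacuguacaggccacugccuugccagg
let-7a-1: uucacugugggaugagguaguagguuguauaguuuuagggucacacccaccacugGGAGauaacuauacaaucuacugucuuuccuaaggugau
let-7b: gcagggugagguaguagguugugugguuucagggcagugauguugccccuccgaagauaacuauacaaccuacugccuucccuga

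Before the members, the cell state of the arrays was checked with marker lists, each gene read at its brightest probe set with an adjusted p under 0.1 in limma as the threshold. Of 7 naive ES cell markers 4 were lower in differentiating cells and none higher, of 5 general pluripotency markers 2 were lower, and of 5 primed epiblast markers 2 were higher. None of 7 endoderm, 7 fibroblast, 3 neuroectoderm and 3 mesoderm markers passed the test in either direction at the brightest probe set. The endoderm marker Dab2, named after its values were seen, had 2 of its 4 probe sets called, and at its brightest it was 3.89-fold higher with no overlap (adjusted p = 0.141). The mean of the 7 naive markers was 8.11, 6.60 and 5.71 on D1, D2 and D3, against 10.18, 9.67 and 10.44 on U1, U2 and U3, so D1 lay nearest to the undifferentiated cells, with the highest value of its group for 7 of 7 naive markers and the lowest for 5 of 5 primed markers. U2 had the lowest value of its group for 5 of 7 naive markers and the highest for 5 of 7 fibroblast markers. Values are log2 units after robust multi-array averaging (RMA), and a value of 1 probe set cannot be set against that of another, since probes differ in brightness.

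No LIN28 or let-7 target gene of the set was called lower in differentiating cells, and 1 probe set, of Igf2bp3, was called higher. Hmga2 had the widest difference, but its undifferentiated arrays disagreed and it was not called. All 19 log2 fold changes (differentiating minus undifferentiated) were above 0, where 56.0% of all probe sets were, with a median of 0.38 against 0.03 over all probe sets. The probe sets of a gene share their RNA and often overlap in target, so the 19 are not independent. A probe set was called where limma gave an adjusted p under 0.1 (Benjamini-Hochberg over 45037 probe sets). Of the 19, 1 was called higher and 0 were called lower, where 0.573% of all probe sets were called higher and 1.03% lower. None of the 19 also reached a log2 fold change of 1 as a called probe set, where 0.329% of all did.

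With a milder reading, 4 of the 19 were higher at an unadjusted p under 0.05 (6.28% of all probe sets), 3 of them for Igf2bp3 and 1 for Igf2bp1. In 5 of the 19 every differentiating array lay above every undifferentiated array (10.0% of all), and in 0 of the 19 every differentiating array lay below (10.3% of all). The other 14 overlapped. At the brightest probe set of each gene, the one with the highest mean over the 6 arrays, 0 of 6 genes were called, where 0.797% of all genes were called higher and 1.45% lower. A bulk measurement cannot tell a change in RNA per cell apart from a change in how many cells express the gene.

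**Figure D1:**
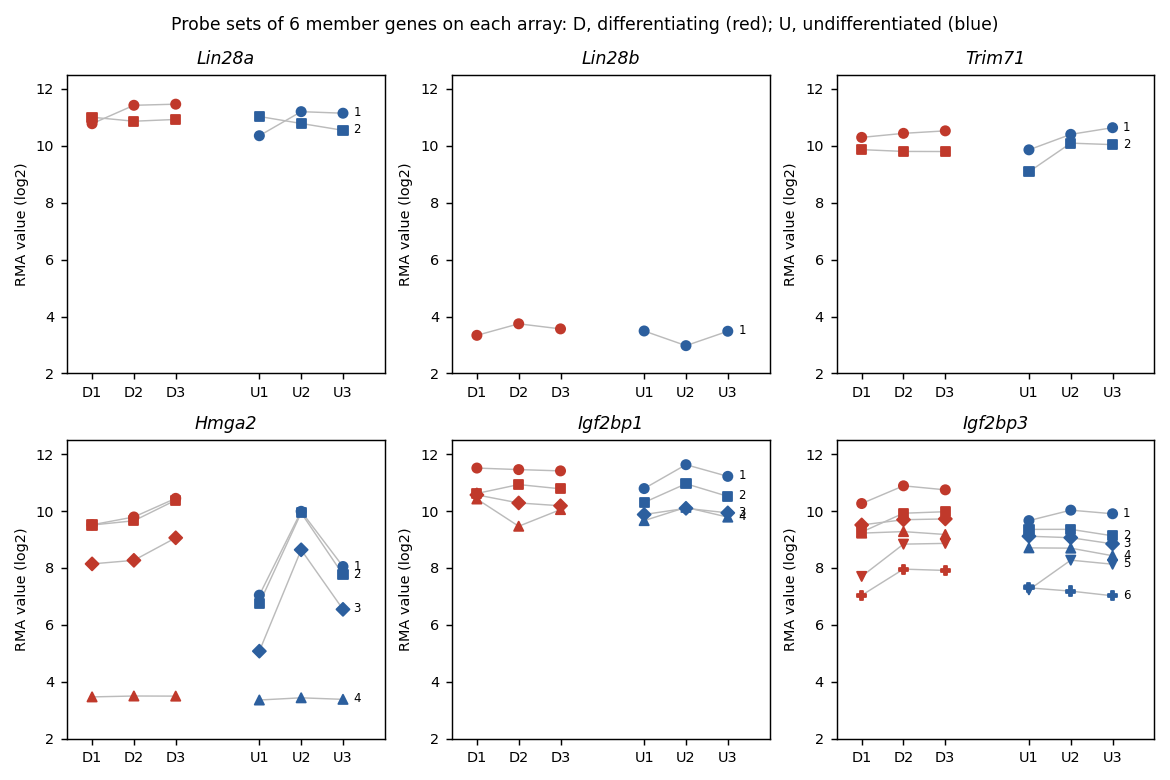
RMA value (log2 units, vertical axis) of every member probe set on each array, with the 3 differentiating arrays (D1 to D3, red) left of the 3 undifferentiated arrays (U1 to U3, blue). Grey lines join the values of 1 probe set and the small numbers count the probe sets of a gene from the brightest. The 3 bright Hmga2 probe sets were all higher on U2 than on U1 and U3, while no probe set of Lin28a, Trim71 or Igf2bp1 was called.

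Lin28a, the ES cell form of LIN28, was not called different between the groups. Its brighter probe set, 1421749_at, had 10.77, 11.42 and 11.46 on D1, D2 and D3, against 10.35, 11.20 and 11.14 on U1, U2 and U3. The groups overlapped, and in each the first array was the lowest. The log2 fold change was 0.32 (SE 0.285, 95% interval -0.35 to 1.00, adjusted p = 0.684, limma). The second, 1437752_at, had 11.00, 10.86 and 10.92 on D1, D2 and D3 and 11.03, 10.78 and 10.54 on U1, U2 and U3. It also overlapped, and the difference was 0.14 log2 units (interval -0.21 to 0.50, adjusted p = 0.728). The lower ends of the intervals correspond to 0.782 and 0.866 of the undifferentiated level. The 2 probe sets did not follow each other from array to array (Pearson r = -0.45 over 6 arrays, a description with no test).

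Lin28b, the paralog of Lin28a, was represented by 1 probe set, 1430803_at. It had 3.34, 3.74 and 3.57 on the differentiating arrays, against 3.49, 2.98 and 3.48 on the undifferentiated arrays. The groups overlapped and every value lay under its array's lower quartile (4.07 to 4.26), so a signal could not be told apart from background without detection calls. The difference of 0.23 log2 units (interval -0.21 to 0.67, adjusted p = 0.645, limma) therefore says little about Lin28b RNA. For the same reason no difference between the Lin28b and Lin28a changes was read.

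Trim71, which the LIN28 and let-7 loop controls in the worm as well as the mouse, was not called different between the groups. Probe set 1453599_at had 10.29, 10.43 and 10.52 on D1, D2 and D3, against 9.86, 10.40 and 10.63 on U1, U2 and U3, a difference of 0.12 log2 units (interval -0.37 to 0.61, adjusted p = 0.849, limma). Probe set 1456673_at had 9.86, 9.80 and 9.80 on D1, D2 and D3, against 9.08, 10.09 and 10.04 on U1, U2 and U3. In both the differentiating arrays fell inside the undifferentiated range, and U1 alone was low. The second differed by 0.08 log2 units (interval -0.55 to 0.72, adjusted p = 0.926). Without U1 both log2 fold changes were below 0, at -0.10 and -0.25.

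Hmga2, the architectural chromatin protein, had the widest change of the set and also the widest spread. Its brightest probe set, 1422851_at, had 9.52, 9.79 and 10.44 on D1, D2 and D3, against 7.04, 9.99 and 8.05 on U1, U2 and U3. The differentiating arrays were all high, while U2 lay above D1 and D2 and the other 2 undifferentiated arrays lay well below. The means were 9.92 ± 0.48 in differentiating and 8.36 ± 1.50 in undifferentiated cells (SD, n = 3 each), a 2.94-fold difference whose 95% interval ran from 0.937 to 9.22 (log2 fold change 1.56, SE 0.696, adjusted p = 0.395, limma). It was not called.

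A further pair of Hmga2 probe sets had the same shape. Probe set 1450780_s_at had 9.51, 9.66 and 10.38 on the differentiating arrays, against 6.75, 9.93 and 7.77 on the undifferentiated arrays (3.24-fold, adjusted p = 0.387, limma). Probe set 1450781_at had 8.14, 8.27 and 9.06, against 5.08, 8.64 and 6.55 in the same order (3.33-fold, adjusted p = 0.422). Across the 6 arrays these 3 followed each other closely (pairwise Pearson r of 0.996 to 0.999, a description, and the probes share their RNA), and U2 was high in all 3. The fourth, 1446196_at, stayed between 3.36 and 3.50 on all 6 arrays, under every array's lower quartile. Its differentiating arrays all lay above its undifferentiated arrays, but the log2 fold change was 0.10 (adjusted p = 0.737).

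The Hmga2 result depended on which undifferentiated array was used. Without U1 the 3 bright probe sets had log2 fold changes of 0.90, 1.00 and 0.90 (1.86-fold, 2.00-fold and 1.86-fold) with adjusted p = 0.544, 0.534 and 0.569 (limma). Without U2 the 3 bright probe sets had log2 fold changes of 2.37, 2.59 and 2.68 (SE 0.382, 0.381 and 0.478), or 5.17-fold, 6.02-fold and 6.40-fold, with adjusted p = 0.054, 0.045 and 0.064 (limma), and all 3 were called, where 1.67% of all probe sets were called higher in that fit. The mean of the 7 fibroblast markers was 6.65, 5.79 and 6.06 on D1, D2 and D3, against 5.69, 6.24 and 5.55 on U1, U2 and U3. U2 was the highest undifferentiated array for 5 of the 7, and U1 for the other two, Thy1 and Pdgfrb. The fibroblast mean was higher on U1 than on U3 and highest of all on D1, which had the lowest differentiating Hmga2 value. Col1a1, Col1a2 and Col3a1 had the same order of undifferentiated arrays as Hmga2, rising from U1 to U3 to U2, and the other markers did not. These collagens were also highest of all on D1. None of the 7 fibroblast markers was called between the groups, a comparison that does not address differences among the undifferentiated arrays. No feeder layer is named for these cultures, and the part of fibroblasts in the Hmga2 values was not tested.

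The genes closest to Hmga2 over the 6 arrays, among 19835 probe sets of other genes above the median level, were Fkbp1a (Pearson r = 0.996), Gskip (0.995) and Pdlim7 (0.995). Fkbp1a encodes the binding protein of the drug FK506, Gskip a protein that binds GSK3B, and Pdlim7 an actin-associated protein. A correlation this high was not rare, since 278 of the 19835 exceeded 0.95, and all points come from the same 6 arrays. Pdlim7 had 9.46, 9.87 and 10.19 on D1, D2 and D3, against 7.93, 10.03 and 8.55 on U1, U2 and U3, again with U2 within the differentiating range.

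**Figure D2:**
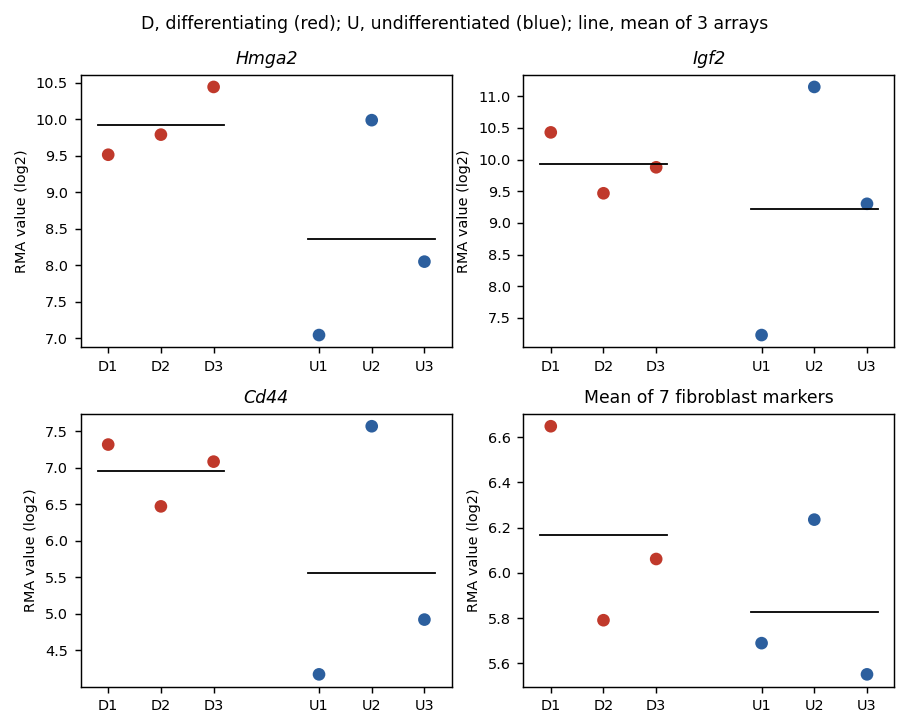
RMA value (log2 units, vertical axes with separate scales that do not start at 0) of Hmga2, of the IGF2BP client transcripts Igf2 and Cd44, and of the mean of 7 fibroblast markers on each array. Differentiating arrays (D1 to D3, red) are left of undifferentiated arrays (U1 to U3, blue) and black lines are means of 3 arrays. U2 was the highest undifferentiated array in all 4 panels.

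Among the Igf2bp genes, only Igf2bp3 had a called probe set, and the test of its difference from Igf2bp1 could not decide. Igf2bp3, an RNA-binding protein of embryonic tissue, had higher values in differentiating cells in all 6 probe sets, with log2 fold changes between 0.44 and 0.76. Probe set 1433731_at had 9.22, 9.28 and 9.18 on D1, D2 and D3, against 8.71, 8.69 and 8.43 on U1, U2 and U3. The groups did not overlap and both were tight. It rose 1.53-fold (log2 fold change 0.62, SE 0.122, interval 0.32 to 0.91, adjusted p = 0.0991, limma), the 1 call among the 19, and it lay just under the threshold.

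Probe set 1433732_x_at had 9.51, 9.69 and 9.72 on D1, D2 and D3, against 9.11, 9.06 and 8.85 on U1, U2 and U3. It was also free of overlap and lay just past the threshold (1.55-fold, adjusted p = 0.101, limma). The brightest, 1422610_s_at, had 10.26, 10.88 and 10.74 on the differentiating arrays, against 9.66, 10.03 and 9.90 on the undifferentiated arrays (1.70-fold, SE 0.192 on the log2 scale, adjusted p = 0.155), with no overlap. Probe sets with these suffixes (_s_at, _x_at) can match more than 1 transcript, and here 3 of the 6 carry one.

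The other 3 Igf2bp3 probe sets overlapped, and in each D1 was the low differentiating array. Probe set 1422611_s_at had 9.26, 9.92 and 9.97 on D1, D2 and D3, against 9.35, 9.36 and 9.13 on U1, U2 and U3 (adjusted p = 0.425, limma). Probe set 1450687_at had 7.04, 7.96 and 7.91, against 7.30, 7.19 and 7.02 in the same order (adjusted p = 0.495). Probe set 1453957_a_at had 7.70, 8.84 and 8.86, against 7.23, 8.27 and 8.13 (adjusted p = 0.580), with the first array low in both groups.

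The call for 1433731_at was lost when any 1 of the 6 arrays was left out (adjusted p from 0.110 to 0.388), although the log2 fold change kept its sign and size. Without D1, however, 4 other Igf2bp3 probe sets were called, where 1.13% of all probe sets were called higher. Without both first arrays, D1 and U1, which had the lowest array weights, all 6 Igf2bp3 probe sets were called (log2 fold changes from 0.65 to 0.85, adjusted p from 0.029 to 0.066, limma), where 3.91% of all probe sets were called higher. That pair of arrays was chosen for omission after seeing the data. D1 was the lowest differentiating array in every Igf2bp3 probe set except 1433731_at. It was also the differentiating array with the highest naive markers, and the part of naive cells in those low values was not tested.

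Igf2bp1, the closest relative measured, had smaller differences. Its brightest probe set, 1455223_at, had 11.51, 11.45 and 11.41 on D1, D2 and D3, against 10.79, 11.63 and 11.22 on U1, U2 and U3. The differentiating arrays were tight and lay inside the undifferentiated range (log2 fold change 0.25, interval -0.25 to 0.74, adjusted p = 0.670, limma). Only 1459825_x_at was free of overlap, with 10.57, 10.28 and 10.18 on the differentiating arrays, against 9.88, 10.10 and 9.93 on the undifferentiated arrays (1.30-fold, adjusted p = 0.308).

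The remaining pair overlapped. Probe set 1418761_at had 10.62, 10.93 and 10.78 on D1, D2 and D3, against 10.30, 10.96 and 10.51 on U1, U2 and U3 (log2 fold change 0.18). Probe set 1449210_at had 10.42, 9.46 and 10.05, against 9.66, 10.13 and 9.78 in the same order (log2 fold change 0.12), and D1 alone carried its sign, which turned to -0.10 without that array. Within arrays, the Igf2bp1 change was smaller than the Igf2bp3 change by 0.52 on the log2 scale at the brightest probe sets. An exact permutation test gave a two-sided p = 0.2, or 0.4 adjusted over 2 pairs of paralogs, of which the Lin28 pair was not read. With 3 arrays against 3, 0.1 is the smallest p such an exact permutation test can give. No difference could therefore fall under the threshold of 0.1, and the test cannot decide whether the 2 genes changed unequally. The within-array difference, Igf2bp1 minus Igf2bp3, averaged 0.83 ± 0.37 in differentiating and 1.35 ± 0.24 in undifferentiated cells (SD, n = 3 each).

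**Figure D3:**
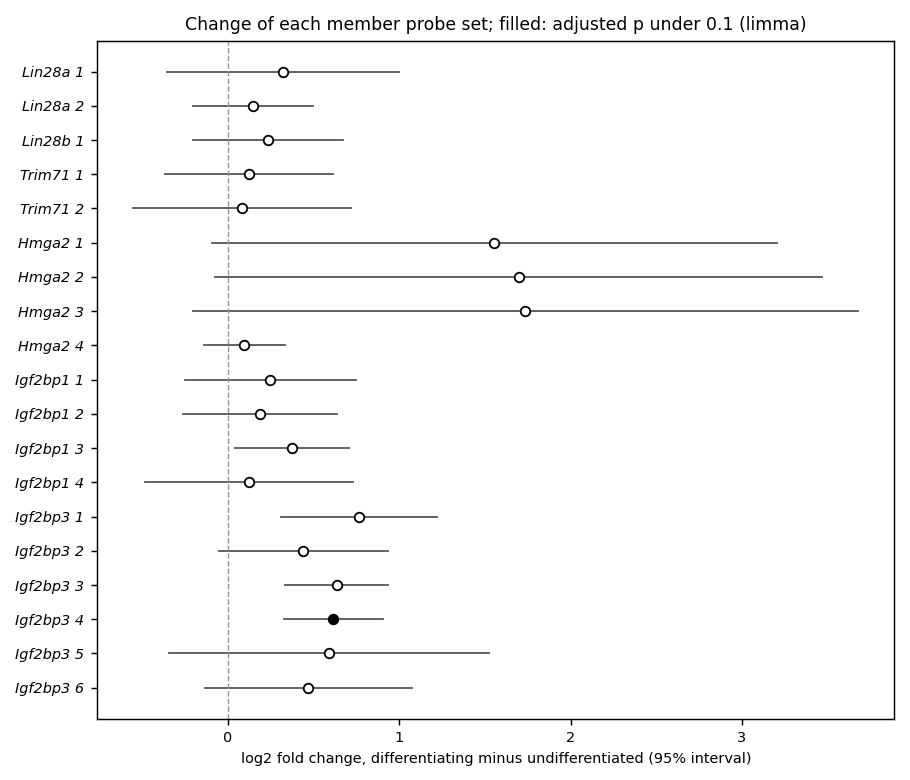
The horizontal axis gives the log2 fold change, differentiating minus undifferentiated, for the 19 member probe sets, numbered within a gene from the brightest, with its 95% interval from limma. All 19 points lie right of the dashed line at 0, and the filled point is the 1 probe set with an adjusted p under 0.1, for Igf2bp3.

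Genes that act with the members were taken as 6 lists holding 60 distinct measured genes, each read at its brightest probe set. Of the 60, 1 rose and 0 fell at an adjusted p under 0.1, beside the 0.797% and 1.45% of all genes given above. Among 20 genes of let-7 biogenesis and turnover, 0 passed in either direction (median log2 fold change 0.08, against 0.02 over all genes). The largest differences in the list belonged to both partners of Dicer, in opposite directions. Tarbp2 had 8.22, 7.98 and 8.08 on D1, D2 and D3, against 8.54, 8.72 and 8.60 on U1, U2 and U3 (log2 fold change -0.53, adjusted p = 0.127, limma), and Prkra had 8.03, 8.14 and 8.27, against 7.87, 7.51 and 7.45 in the same order (0.54, adjusted p = 0.192). The groups did not overlap for either gene, and neither passed the test.

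Of the transcripts that host let-7 genes, 3 were measured and 0 passed. Wdr82, the gene at the let-7g locus, had 10.10, 10.26 and 10.17 on the differentiating arrays, against 10.64, 10.35 and 10.65 on the undifferentiated arrays (log2 fold change -0.37, adjusted p = 0.281, limma). Its groups did not overlap, with the differentiating arrays lower. Huwe1, the ubiquitin ligase gene that hosts let-7f-2 and miR-98, differed by 0.07 log2 units (interval -0.18 to 0.31, adjusted p = 0.825). A host transcript does not report the amount of mature let-7, which LIN28 controls after transcription.

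Of 22 other known let-7 targets measured, 1 rose and 0 fell (median log2 fold change 0.07). Igf1r, the receptor for insulin-like growth factors, had 9.15, 9.12 and 9.47 on D1, D2 and D3, against 7.56, 8.36 and 7.84 on U1, U2 and U3. The groups did not overlap, and it was 2.52-fold higher in differentiating cells (log2 fold change 1.33, SE 0.220, interval 0.81 to 1.85, adjusted p = 0.0739, limma), with 3 of its 5 probe sets called. The call was lost without D1, D2, D3 or U3 in turn (adjusted p from 0.107 to 0.311), with log2 fold changes from 1.22 to 1.40. The other 21 did not pass, and 13 of the 22 log2 fold changes were above 0 and 9 below.

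**Figure D4:**
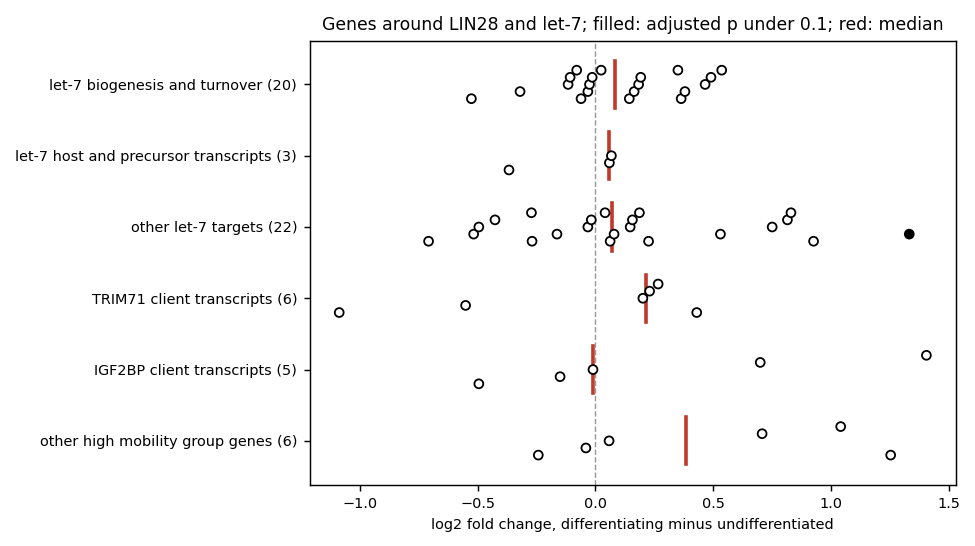
Measured genes of the 6 lists are placed by log2 fold change (horizontal axis, differentiating minus undifferentiated) at the brightest probe set, with the number measured in parentheses, the list's median as a red bar and genes with an adjusted p under 0.1 filled. Igf1r, at 1.33, is the only filled point, and every list's median lies between -0.01 and 0.38.

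None of the 6 TRIM71 client transcripts passed. Rbl2, a pocket protein of the retinoblastoma family, was the widest, with 5.08, 5.24 and 4.84 on D1, D2 and D3, against 6.63, 5.91 and 5.88 on U1, U2 and U3 (log2 fold change -1.09, adjusted p = 0.112, limma). Its groups did not overlap. Cdkn1a, the cell cycle inhibitor p21, had overlapping groups (log2 fold change -0.55, adjusted p = 0.491).

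None of the 5 IGF2BP client transcripts measured passed, and the 2 with the widest differences shared the U2 pattern of Hmga2. Cd44, the hyaluronan receptor, had 7.32, 6.47 and 7.08 on D1, D2 and D3, against 4.17, 7.57 and 4.92 on U1, U2 and U3 (log2 fold change 1.40, adjusted p = 0.520, limma). Igf2, the growth factor that names the IGF2BP family, had 10.43, 9.47 and 9.88 on D1, D2 and D3, against 7.23, 11.15 and 9.30 on U1, U2 and U3 (log2 fold change 0.70, adjusted p = 0.787). In both, U2 was the highest of all 6 arrays and U1 the lowest, as far apart as 3.92 log2 units for Igf2.

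Of 6 other high mobility group genes measured, which encode the chromatin proteins named with HMGA for their gel mobility, 0 passed (median log2 fold change 0.38). Hmgn3, a nucleosome-binding protein, had 9.31, 9.43 and 9.75 on the differentiating arrays, against 7.81, 9.12 and 7.80 on the undifferentiated arrays (log2 fold change 1.25, adjusted p = 0.201, limma), free of overlap but with U2 the nearest. Hmgn5, a related protein, had 9.24, 10.36 and 10.39 on D1, D2 and D3, against 8.11, 9.47 and 9.29 on U1, U2 and U3 (log2 fold change 1.04, adjusted p = 0.370), and overlapped.

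Array by array, D1 was the lowest of its group in 13 of the 19 member probe sets, where it was the lowest in 34.8% of all probe sets and the highest in 47.6%. U1 was also the lowest of its group in 13 of 19, where it was the lowest in 34.7% of all probe sets and the highest in 42.4%. U2 was the highest of its group in 13 of 19, against 26.8% of all. D1 and U1 were thus the arrays most often highest of their groups over all probe sets, and the medians of all 6 arrays lay within 5.54 to 5.65. The values of D1 were less spread, with quartiles of 4.26 and 7.63, against 4.09 and 7.78 on D2 and 4.08 and 7.77 on D3. Only 2 of the 19 member probe sets lay at or below the median level. The shares over all probe sets, bright and dim together, are therefore not a like baseline for the members.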

How the data were processed

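Biotin-labelled total RNA from sorted E14TG2a cells was hybridised to 6 arrays. The authors computed the deposited log2 values with RMA in the affy library, whose version the sources used here do not give. No detection calls and no probe-level intensities were used. Here, 64 control probe sets were left out of 45101, and the other 45037 were fitted with lmFit and eBayes of limma 3.58.1 (R 4.3.3), with Benjamini-Hochberg adjustment and a threshold of 0.1. The script was checked on simulated data, where 51.5% of 200 changes of 1 log2 unit were called in the right direction. For changes of 2 and 3 log2 units the shares were 89% and 94.5%. A missing call therefore does not exclude a change of 1 log2 unit. Gene symbols came from the platform annotation (34945 probe sets with 1 symbol, 932 with several, 9160 with none), and 34741 were looked up by gene identifier, of which 0 changed. Named genes were all members, and from each of the 6 lists of genes acting with them those that passed, or the 2 with the largest change where none did. Markers were counted by list, and those named were chosen after their values were seen. The members and lists were chosen with earlier results of these data known. The number of arrays limits the precision. Alternatives tried were a replicate block, brighter probe sets only, control probe sets kept, quantile and median scaling, a trended variance, array weights, other thresholds, other probe set rules and leaving out arrays.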

Additional observations from a re-analysis of the deposited data

How the results depend on the processing

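The count of member probe sets called was 1 of 19 in the reported fit. Shares of all probe sets tested, in parentheses, count calls in both directions, and that fit had 1.60%. The count was 2 of 17 with only probe sets above the median level (3.69%). It was 2 after a second quantile normalization (1.48%) and 1 with control probe sets kept (1.60%). It was 0 with median centring (1.56%) and with a trended variance (1.48%). At an adjusted p under 0.05 (0.233%) or with a log2 fold change of at least 1 (0.941%) it was also 0. The count was 6 with array weights (15.9%) and 6 without both first arrays (7.90%, a pair chosen after seeing the data). Leaving out 1 array gave 0 to 4, with 4 without D1 (2.20%), 3 without U2 (3.31%) and 0 without U1 (1.59%). Without D2, D3 or U3 the count was 0, and no more than 3 probe sets in all were called. Shares over all genes are not given for the alternatives. The shares of probe sets above are the only baseline for the gene and list counts. Genes called at their brightest probe set numbered 0, but 1 with array weights and 1 by any probe set, and 0 to 1 on leaving out an array. The list genes called numbered 1, but 2 with brighter probe sets only, 2 with median centring, 22 with array weights, 0 at an adjusted p under 0.05, and 0 to 6 on leaving out an array (Igf1r lost its call without D1, D2, D3 or U3). Deviations from the group means had correlations of 0.205, -0.110 and 0.115 between same-numbered arrays, and from -0.315 to 0.316 between the others. With so few arrays this cannot decide whether the numbers pair them. With the replicate number as a block, 0 member probe sets and 2 list genes were called, where 1.45% of all probe sets were called.

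With array weights the log2 fold change turned to -0.014 for Trim71 1453599_at, -0.15 for Trim71 1456673_at and -0.29 for Igf2bp1 1449210_at. On leaving out an array it ran from -0.10 to 0.29, from -0.25 to 0.26 and from -0.10 to 0.38 for these, below 0 without U1 for Trim71 and without D1 for Igf2bp1. The Lin28b minus Lin28a difference, not read because Lin28b lay near background, ran from -0.41 to 0.27 on leaving out an array and was above 0 without D3 (0.02) or U1 (0.27). Of 246 values of single probe sets under alternatives, 216 kept direction and call, 14 gained a call, 10 lost one and 6 turned. The cause was not tested. With 3 arrays a group, values near background (Lin28b) have no readable direction.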

Other observations

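Cdk6, a cell cycle kinase and let-7 target picked here after its values were seen, had 9.77, 9.25 and 9.77 on D1, D2 and D3, against 6.73, 10.00 and 9.28 on U1, U2 and U3. As for Igf2 and Cd44, U1 was the lowest and U2 the highest of all 6 arrays (log2 fold change 0.93, adjusted p = 0.661, limma). Myc and Ccnd1, from the same list and also picked after their values were seen, had the same lowest and highest arrays. Their log2 fold changes were -0.49 and 0.04. In these, U3 lay near U2, at 9.29 against 9.44 for Myc and 10.47 against 10.70 for Ccnd1.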
